A study of Mus musculus with 9 samples.

Results

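Respiratory complex I is the mitochondrial enzyme that oxidises NADH, passes the electrons to ubiquinone and pumps protons across the inner mitochondrial membrane. Its nuclear genes were chosen by name, as the protein-coding genes with Ndufa, Ndufab, Ndufb, Ndufc, Ndufs or Ndufv symbols (38 subunits) and with Ndufaf symbols (8 assembly factors), which together made 46 of the 56748 genes in the table. All 46 were abundant enough to be tested, among 13042 genes tested. Ndufa4 carries a complex I name but is now placed in complex IV, and it is kept in the 38 and described apart.

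The data are RNA-seq libraries of polyadenylated RNA from whole liver tissue of C57BL/6J males, all 28 weeks old and all fed a high-fat diet for 20 weeks. In the last 4 weeks 5 mice received formoterol, a long-acting agonist of beta-adrenergic receptors, at 1 mg/kg by daily injection into the peritoneum, and 4 mice received the vehicle DMSO in the same way. The question is how formoterol on that diet bears on liver transcripts, and no group of mice on normal chow is part of it. Each library is named by its animal code, M56, M58, M59 and M60 for vehicle and M46 to M50 for formoterol, and the group was read from the last letter of the column name together with the group sizes, so each direction given here rests on that reading.

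Complex I has a peripheral arm in the matrix and a membrane arm. The N module at the tip of the peripheral arm holds the NADH site, the Q module below it holds the ubiquinone site, and the ND1, ND2, ND4 and ND5 modules of the membrane arm, named after subunits encoded by mitochondrial DNA (mtDNA), move the protons. A small core set of subunits carries the flavin, the iron-sulfur clusters and the proton channels, the accessory subunits surround that core, and assembly factors help to build the enzyme without staying in it. Liver depends on it to reoxidise NADH from fatty acid oxidation, amino acid breakdown and the citric acid cycle. The modules used here are those described for human and bovine complex I.

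Library totals ranged from 12336665 to 20339665 counts and differed between groups by less than their spread (two-sided exact permutation p = 0.810, smallest p possible 0.0159). Levels are CPM, counts scaled to a common library size with edgeR's TMM factors, and differences are log2 fold changes of formoterol minus vehicle with their standard error (SE), from edgeR's quasi-likelihood test over all genes. After Benjamini-Hochberg adjustment that test called 0 genes (0% of those tested, smallest adjusted p = 0.136), so no complex I gene passed it. At an unadjusted p under 0.05 it had 1178 genes higher in formoterol livers (9.03%) and 721 lower (5.53%), and these shares are the background for the counts given here. DESeq2 called 306 of the 8989 genes to which it gave an adjusted p (3.40%), 226 of them higher (2.51%), limma-voom 0 (with 1088 genes higher and 946 genes lower before adjustment) and limma-voom with sample quality weights 1374 (10.5%), 792 of them higher (6.07%).

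Most nuclear complex I subunits had higher values in the formoterol livers, and none passed edgeR's test after adjustment. A positive log2 fold change was found for 37 of the 38 subunits, against 48.7% of all genes tested, with Ndufab1 turning to −0.08 when counts were scaled by library totals. At an unadjusted p under 0.05, 25 subunits were higher and 0 lower. The median over the 38 was 0.52, a 1.44-fold difference, where the median over all genes tested was −0.014. Single subunits ranged from −0.11 for Ndufs1 to 0.87 for Ndufa5, and 19 subunits exceeded 0.5, as did 9.78% of all genes tested. The 8 assembly factors also all had positive values (Ndufaf1 turned to −0.03 with library totals), with a median of 0.35 (1.27-fold), but only Ndufaf2 had an unadjusted p under 0.05. DESeq2 called 5 of the subunits (Ndufa11, Ndufv3, Ndufb4, Ndufa5 and Ndufa8), limma-voom 0, and limma-voom with quality weights 19 subunits and Ndufaf2. In bulk liver, a different number of cells of a type and a different amount of RNA per cell cannot be told apart.

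**Figure D1:**
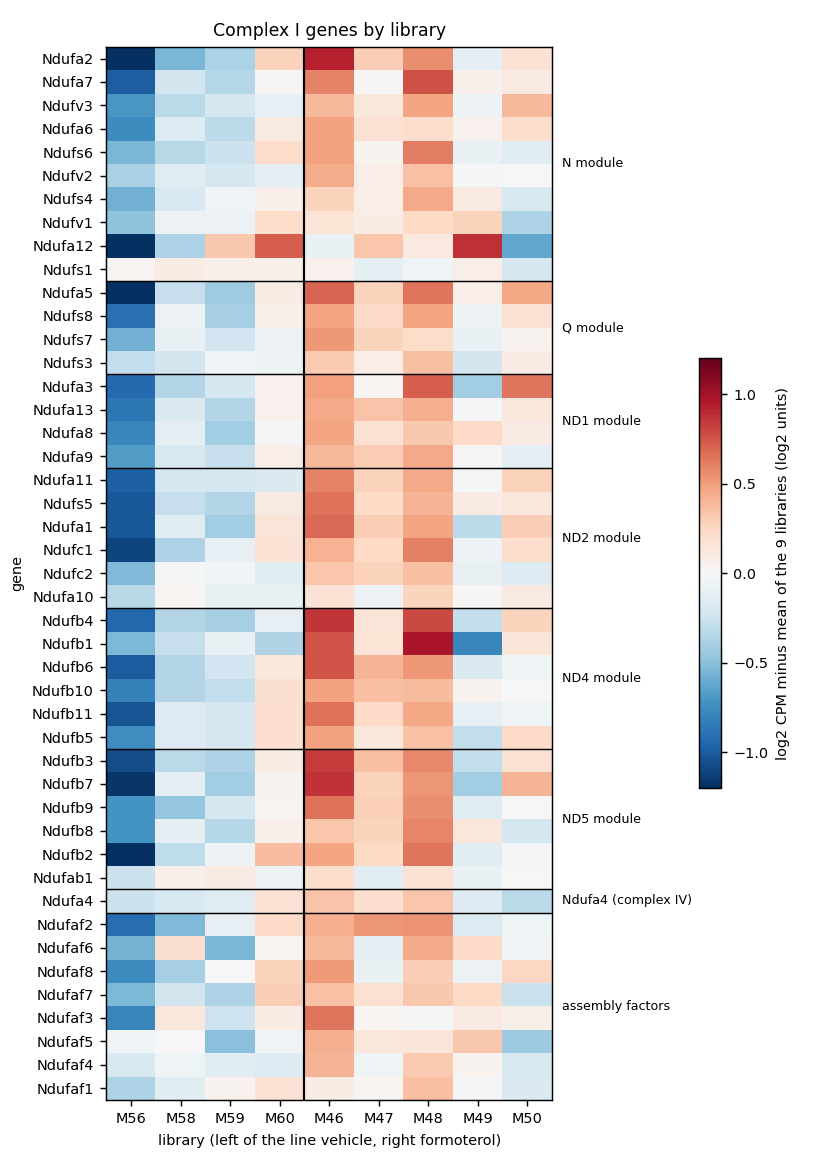
Each row is 1 of 45 complex I genes and each column 1 library, and colour gives log2 CPM minus the mean of the 9 libraries, with values beyond 1.2 in either direction drawn at the end of the scale. The column of vehicle library M56 is the bluest, those of formoterol libraries M46 and M48 the reddest, and Ndufs1 is nearly level across all 9.

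Promoters are shown for the subunits with the smallest p in the N, Q, ND1, ND2 and ND4 modules, which had the smallest p of all members, and for Ndufa12 and its paralogue Ndufaf2, which take the same place in the enzyme at different stages. They run from 250 bases before to 50 after the start, 5′ to 3′ on the gene's strand, and come from RefSeq on GRCm38.p6. Capitals mark matches to the motifs searched on both strands: NRF1 GCGCATGC, ETS CCGGAAG, YY1 AAGATGGCG, ERR TCAAGGTCA, CRE TGACGTCA, SP GGGGCGGGG and the CCAAT box.
Ndufa11 (chr17:56717512-56717811, plus strand): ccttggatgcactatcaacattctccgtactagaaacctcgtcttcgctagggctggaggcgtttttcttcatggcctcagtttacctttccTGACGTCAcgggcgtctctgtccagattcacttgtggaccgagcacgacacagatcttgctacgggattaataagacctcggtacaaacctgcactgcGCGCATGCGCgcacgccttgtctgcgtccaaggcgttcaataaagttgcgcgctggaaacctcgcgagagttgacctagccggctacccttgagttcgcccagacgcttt
Ndufv3 (chr17:31519865-31520164, plus strand): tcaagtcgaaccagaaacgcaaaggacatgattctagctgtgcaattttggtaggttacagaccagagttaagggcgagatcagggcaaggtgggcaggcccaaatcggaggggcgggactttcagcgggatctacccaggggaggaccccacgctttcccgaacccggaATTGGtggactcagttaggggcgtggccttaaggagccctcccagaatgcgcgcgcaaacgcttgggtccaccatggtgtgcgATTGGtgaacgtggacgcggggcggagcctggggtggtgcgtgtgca
Ndufb4 (chr16:37654319-37654618, minus strand): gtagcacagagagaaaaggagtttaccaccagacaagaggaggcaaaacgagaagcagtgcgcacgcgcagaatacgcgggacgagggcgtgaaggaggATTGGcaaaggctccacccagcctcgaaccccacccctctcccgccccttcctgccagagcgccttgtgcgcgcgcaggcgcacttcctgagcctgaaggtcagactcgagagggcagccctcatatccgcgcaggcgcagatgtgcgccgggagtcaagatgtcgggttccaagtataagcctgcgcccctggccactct
Ndufa5 (chr6:24527477-24527776, minus strand, first of its windows): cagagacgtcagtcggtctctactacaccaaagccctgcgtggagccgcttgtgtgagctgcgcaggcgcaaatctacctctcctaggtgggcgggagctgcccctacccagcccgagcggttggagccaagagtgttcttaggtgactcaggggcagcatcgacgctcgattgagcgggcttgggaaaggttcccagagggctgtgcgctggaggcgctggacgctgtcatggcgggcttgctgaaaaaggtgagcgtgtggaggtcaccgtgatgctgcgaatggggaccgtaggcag
Ndufa8 (chr2:36049289-36049588, minus strand): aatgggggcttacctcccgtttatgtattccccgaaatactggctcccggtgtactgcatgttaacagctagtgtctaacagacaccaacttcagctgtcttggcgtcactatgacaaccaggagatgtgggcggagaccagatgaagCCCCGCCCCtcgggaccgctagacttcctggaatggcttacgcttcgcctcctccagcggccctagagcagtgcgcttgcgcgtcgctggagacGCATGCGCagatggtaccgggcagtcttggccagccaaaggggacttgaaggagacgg
Ndufa12 (chr10:94198785-94199084, plus strand): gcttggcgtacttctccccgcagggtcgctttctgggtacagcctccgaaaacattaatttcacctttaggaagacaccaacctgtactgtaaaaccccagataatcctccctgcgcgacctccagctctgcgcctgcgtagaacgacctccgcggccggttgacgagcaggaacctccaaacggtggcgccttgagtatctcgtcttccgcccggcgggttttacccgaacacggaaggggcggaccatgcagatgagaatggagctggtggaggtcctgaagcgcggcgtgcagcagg
Ndufaf2 (chr13:108158576-108158875, minus strand): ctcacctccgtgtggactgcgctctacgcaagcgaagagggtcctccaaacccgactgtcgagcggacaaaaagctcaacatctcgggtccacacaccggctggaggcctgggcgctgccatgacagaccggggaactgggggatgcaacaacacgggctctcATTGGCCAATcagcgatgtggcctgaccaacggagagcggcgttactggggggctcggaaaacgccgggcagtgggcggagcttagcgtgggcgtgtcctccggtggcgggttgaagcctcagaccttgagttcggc
In Ndufa11 the run GCGCATGCGC holds the NRF1 motif on both strands, from −60 to −51 relative to the start, and a CRE lies at −158 to −151. In Ndufa8 the NRF1 motif ends at −1 and an SP motif lies at −102 to −94. The CCAAT box is in Ndufv3, Ndufb4 and Ndufaf2, and none of the 7 motifs is in the windows shown for Ndufa5 and Ndufa12.

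Promoter windows were found for 41 of the 46 members. Among the 36 windows of 34 subunit genes, the YY1 motif was in 13.9%, against 1.40% of all 32851 promoters in the reference table and 2.97% of the promoters of genes tested. NRF1, the factor named nuclear respiratory factor, had its motif in 8.33% of the subunit windows, against 2.71% and 4.98%. The CRE, which binds factors of the cyclic AMP pathway, was also in 8.33%, those of Ndufa10, Ndufb2 and Ndufa11, against 1.79% and 2.82%. ETS motifs were in 11.1%, against 8.86% of all promoters and 16.9% of those of genes tested, SP motifs in 13.9%, against 11.4% and 20.5%, and the CCAAT box in 27.8%, against 37.4% and 37.7%. The ERR motif was in 0% of them and in 0.423% of all promoters. Of the 5 subunit windows with a YY1 motif, in Ndufc1, Ndufa9, Ndufs7, Ndufs6 and Ndufs4, all had it between 23 and 44 bases after the start. Among the 7 assembly factor windows, NRF1 motifs were in 2 (Ndufaf4 and Ndufaf5), ETS motifs in 2 (Ndufaf1 and Ndufaf8) and CCAAT boxes in 4. These are matches of letters, and binding was not measured.

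The N module takes electrons from NADH. Of its 10 subunits, 9 had positive values and 5 an unadjusted p under 0.05 (median 0.40). Ndufv3 (ENSMUSG00000024038; chromosome 17, 31739089 to 31750305 on mm39), an accessory subunit at the NADH end, had 43.7, 56.9, 61.8 and 66.4 CPM in vehicle libraries M56, M58, M59 and M60, and 93.2, 78.0, 98.4, 68.1 and 92.9 CPM in formoterol libraries M46 to M50. The groups did not overlap, with M49 just above M60. Its log2 fold change was 0.59 (SE 0.16, edgeR adjusted p = 0.173, DESeq2 adjusted p = 0.0309). Ndufa7, another accessory subunit, had 36.9 ± 9.86 CPM (SD, n = 4) in vehicle and 59.3 ± 14.8 (SD, n = 5) in formoterol livers, also without overlap. Ndufa2 had the largest difference in the module, 0.78 (SE 0.27), and Ndufa6, which holds an acyl carrier protein in the complex, had 0.48 (SE 0.17).

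The core subunits of the N module are Ndufv1, Ndufv2 and Ndufs1. Ndufv1, which binds NADH and the flavin, had 47.8, 63.5, 63.4 and 77.8 CPM in the vehicle libraries in the order above and 74.6, 71.1, 78.7, 80.3 and 51.6 CPM in the formoterol libraries. The groups overlapped, since M50 lay below 3 of the 4 vehicle libraries, and the log2 fold change was 0.18 (SE 0.17). Ndufv2, an iron-sulfur protein beside it, had 91.6, 109, 104 and 111 CPM in vehicle against 164, 127, 154, 118 and 121 in formoterol libraries. These groups did not overlap, and the difference was 0.40 (SE 0.15, unadjusted p = 0.0180, edgeR adjusted p = 0.242). Ndufs1, the largest core subunit, which carries several iron-sulfur clusters, had 47.3, 49.1, 48.2 and 48.1 CPM in vehicle libraries and 47.8, 42.6, 44.5, 48.7 and 40.2 in formoterol libraries. It was the steadiest of the subunits in vehicle livers and the only one with a negative value (−0.11, SE 0.12).

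Ndufa12 stood apart in its spread, and its log2 fold change was also among the lowest of the subunits. This accessory subunit caps the N module, where it takes the place that its paralogue Ndufaf2 holds during assembly. Ndufa12 had 11.2, 21.2, 34.4 and 45.3 CPM in the vehicle libraries and 25.9, 34.5, 29.8, 50.3 and 17.8 CPM in the formoterol libraries. The groups overlapped almost fully, and the log2 fold change of 0.17 had an SE of 0.39, against a median SE of 0.19 over the subunits. Reads of its processed pseudogene Ndufa12-ps, with 742 counts over the 9 libraries, cannot be separated from it with certainty. Ndufs4 (0.33, SE 0.17) and the zinc-binding Ndufs6 (0.41, SE 0.20) had positive values at p above 0.05.

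The Q module hands the electrons to ubiquinone, and it holds 4 of the 7 nuclear core subunits. All 5 of its subunits had positive values and 3 an unadjusted p under 0.05 (median 0.44). The accessory subunit Ndufa5 (ENSMUSG00000023089; chromosome 6, 24518665 to 24528012 on mm39) had 17.1, 40.7, 36.7 and 52.6 CPM in vehicle libraries and 80.1, 59.9, 77.0, 52.1 and 68.3 in formoterol libraries. M56 held the lowest value by a wide margin, and M49 lay just below M60, so the groups overlapped in that pair alone. This was the largest difference among the members (0.87, SE 0.26, edgeR adjusted p = 0.181, DESeq2 adjusted p = 0.0350).

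Ndufs8, a core iron-sulfur subunit, had 59.8, 106, 84.6 and 116 CPM in vehicle against 155, 131, 155, 107 and 126.5 CPM in formoterol libraries. M49 lay below M60 and just above M58, and the other 4 formoterol libraries lay above every vehicle library (0.56, SE 0.19). Ndufs7, which lines the ubiquinone pocket and carries the last cluster of the chain, had 39.2, 55.2, 49.9 and 55.9 CPM against 84.1, 70.5, 68.1, 55.5 and 60.4. Again only M49 fell among the vehicle libraries (0.44, SE 0.16). Ndufs3, a core subunit without a cluster, had 82.9, 87.4, 97.7 and 97.1 CPM against 125.5, 107, 130, 87.4 and 109 (0.29, SE 0.15).

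Core subunits had a lower median difference than the accessory ones, and a higher median gene length. The 7 core subunits had a median of 0.29 and 3 of them an unadjusted p under 0.05 (Ndufs8, Ndufs7 and Ndufv2). The 30 accessory subunits had a median of 0.58, with 22 at that p. Median gene length was 2178 bp for the core and 1234 bp for the accessory subunits. With an offset for gene length in each library, the medians were 0.23 and 0.39, and the difference between the sets was not tested.

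**Figure D2:**
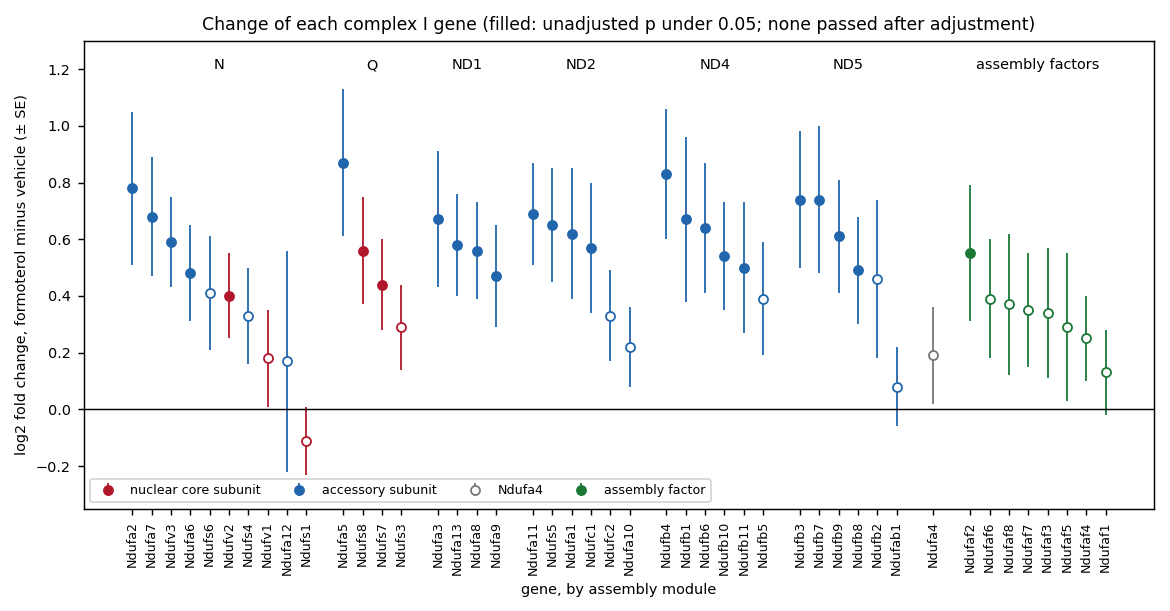
Points give the log2 fold change of formoterol minus vehicle for 45 of the genes and bars its SE, ordered within modules, with filled points at an unadjusted p under 0.05. Of the subunits, 25 are filled, and Ndufs1 is the only point below 0.

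In the membrane arm, all 22 subunits of its 4 modules had positive values, Ndufab1 not so with library totals, and 17 an unadjusted p under 0.05. In the ND1 module, next to the ubiquinone site, all 4 subunits had such a p (median 0.57). Ndufa8 (ENSMUSG00000026895; chromosome 2, 35926338 to 35939418 on mm39), a subunit on the intermembrane side, had 93.3, 149, 120 and 159 CPM in vehicle libraries and 222, 182, 200, 188 and 171 CPM in formoterol libraries. The groups did not overlap, with M50 lowest among formoterol and M60 highest among vehicle libraries (0.56, SE 0.17, edgeR adjusted p = 0.187, DESeq2 adjusted p = 0.0427). The others were Ndufa3 (0.67, SE 0.24), Ndufa13 (0.58, SE 0.18), also known as GRIM-19, and Ndufa9 (0.47, SE 0.18).

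In the ND2 module the median was 0.59 over 6 subunits, 4 of them at an unadjusted p under 0.05. Ndufa11 (ENSMUSG00000002379; chromosome 17, 57024767 to 57029141 on mm39), a membrane subunit, had the smallest p of all members. It had 18.9, 32.3, 32.2 and 33.2 CPM in the vehicle libraries and 56.6, 45.2, 51.1, 36.9 and 45.3 CPM in the formoterol libraries. The groups did not overlap, and 3 of the vehicle libraries lay between 32.2 and 33.2 CPM with M56 far below them. The log2 fold change was 0.69 (SE 0.18, unadjusted p = 0.00200, edgeR adjusted p = 0.171, DESeq2 adjusted p = 0.0309), and 0.53 to 0.76 when single libraries were left out. Ndufs5, on the intermembrane side, had 0.65 (SE 0.20), Ndufa1 0.62 (SE 0.23) and Ndufc1 0.57 (SE 0.23), while Ndufc2 (0.33, SE 0.16) and Ndufa10, a protein of the nucleoside kinase family (0.22, SE 0.14), had a p above 0.05.

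The ND4 and ND5 modules form the far end of the membrane arm, with medians of 0.59 and 0.55 over 6 subunits each, and 5 and 4 of them at an unadjusted p under 0.05. Ndufb4 (ENSMUSG00000022820; chromosome 16, 37467532 to 37474815 on mm39), an accessory subunit of the ND4 module, had 34.0, 51.1, 49.6 and 61.1 CPM in vehicle against 118, 72.7, 113, 53.5 and 78.5 CPM in formoterol libraries. M46 and M48 were the highest, M49 lay within the vehicle range, and the difference was 0.83 (SE 0.23, edgeR adjusted p = 0.173, DESeq2 adjusted p = 0.0315). Ndufb9, an accessory subunit of the ND5 module, had 39.5, 47.2, 56.3 and 66.5 CPM in vehicle against 102, 79.4, 95.6, 58.8 and 65.3 CPM in formoterol libraries. There M49 and M50 lay below M60 (0.61, SE 0.20). Ndufb3 and Ndufb7 of the ND5 module each had 0.74, with SEs of 0.24 and 0.26.

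Ndufab1 is counted here with the ND5 module but is best known as the mitochondrial acyl carrier protein, which also serves fatty acid and lipoic acid synthesis. It had 35.7, 44.6, 45.6 and 40.7 CPM in vehicle libraries and 49.4, 39.0, 48.2, 40.3 and 42.9 CPM in formoterol libraries. The groups overlapped throughout (0.08, SE 0.14). Ndufa4, of complex IV, had 127 ± 17.2 CPM (SD, n = 4) in vehicle and 145 ± 29.0 (SD, n = 5) in formoterol livers (0.19, SE 0.17), and the median over the other 37 subunits was 0.54. Ndufs1, Ndufab1, Ndufa12, Ndufv1 and Ndufa4 had the lowest values of the 38 subunits.

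Libraries of the groups were fully separated in few members. In 5 subunits (Ndufa11, Ndufv3, Ndufa8, Ndufa7 and Ndufv2) all 5 formoterol libraries lay above all 4 vehicle libraries, a pattern found in 2.45% of the genes tested. In 20 subunits at least 4 of the 5 formoterol libraries lay above every vehicle library, as in 10.6% of the genes tested. No assembly factor reached the first pattern, and 1 reached the second.

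Assembly factors had a lower median difference than the subunits. Their summed level was 118 ± 15.6 CPM (SD, n = 4) in vehicle and 142 ± 20.2 (SD, n = 5) in formoterol livers, a ratio of 1.21, with ranges that overlapped (97.6 to 136 and 117 to 164). Ndufaf2, which holds the place of Ndufa12 during assembly, had 6.41, 8.39, 11.3 and 14.2 CPM in vehicle libraries and 16.4, 17.5, 17.6, 10.8 and 11.7 CPM in formoterol libraries. M46, M47 and M48 lay above every vehicle library, and M49 and M50 lay within the vehicle range. The difference was 0.55 (SE 0.24, unadjusted p = 0.0378, edgeR adjusted p = 0.311). Smim15, a gene on the opposite strand that overlaps Ndufaf2, had 191% as many counts, and the strand setting of the counting is not known.

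The other 7 factors had positive values at an unadjusted p above 0.05, so edgeR had 0 assembly factors lower. Ndufaf6, which acts on early membrane arm parts, had 0.39 (SE 0.21), and Ndufaf8, the partner of Ndufaf5, had 0.37 (SE 0.25). Ndufaf7, a mitochondrial arginine methyltransferase, had 0.35 (SE 0.20), and Ndufaf5, which hydroxylates Ndufs7, had 0.29 (SE 0.26). Ndufaf3 and Ndufaf4, which bind each other and the Q module parts, had 0.34 (SE 0.23) and 0.25 (SE 0.15). Ndufaf1, of the complex that assembles the membrane arm, had 0.13 (SE 0.15), the lowest of the 8.

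Assembly factors outside the Ndufaf names had values nearer 0. Of 12 listed, 11 were in the table and tested, 7 positive and 4 negative, with a median of 0.091. Ecsit, a partner of Ndufaf1, had 31.4, 28.4, 37.4 and 38.7 CPM in vehicle libraries and 56.5, 41.8, 47.1, 34.8 and 45.2 CPM in formoterol libraries. M49 fell among the vehicle libraries, and the difference was 0.41 (SE 0.16, unadjusted p = 0.0232, edgeR adjusted p = 0.262), the only one of the 11 at that p. Timmdc1, of the same assembly complex, had 10.1, 10.2, 14.9 and 13.7 CPM against 18.7, 16.4, 14.3, 16.4 and 12.9 (0.36, SE 0.18). Acad9 (−0.28, SE 0.22) and Tmem126b (0.11, SE 0.15), further members of that complex, differed by less than 2 SEs.

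Transcripts of the 7 complex I subunits encoded by mtDNA, all of them core subunits, had values on both sides of 0. Their median was −0.086, 6 of 7 had negative values and 0 had an unadjusted p under 0.05 in either direction by edgeR. Mt-Nd5 had 22392, 28977, 24102 and 15522 CPM in vehicle libraries and 8037, 14680, 9363, 20447 and 38459 CPM in formoterol libraries. M50 held the highest value and M46 the lowest, both in the formoterol group (−0.32, SE 0.41). Mt-Nd3, the exception in sign, had 60.5, 103, 48.4 and 80.9 CPM against 87.1, 97.3, 193, 48.7 and 180 (0.73, SE 0.38, unadjusted p = 0.0856). Single libraries decided these values. Without M50 the median was −0.437 and 3 subunits were lower before adjustment, mt-Nd5 (−0.81, unadjusted p = 0.0151), mt-Nd4l (−1.07, unadjusted p = 0.0237) and mt-Nd6 (−0.55, unadjusted p = 0.0472), with edgeR adjusted p from 0.193 to 0.279. Mt-Nd3 was higher before adjustment without M49 (0.93, unadjusted p = 0.00928) and without M58 (0.94, unadjusted p = 0.0464), with edgeR adjusted p of 0.0898 and 0.397. All counts from the mitochondrial genome made 28.9 ± 4.37% (SD, n = 4) of vehicle and 24.1 ± 8.78% (SD, n = 5) of formoterol libraries, a difference within the spread (two-sided exact permutation p = 0.349).

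The summed level of the 38 subunits was 2378 ± 466 CPM (SD, n = 4) in vehicle and 3268 ± 490 (SD, n = 5) in formoterol livers. By library it was 1759, 2471, 2395 and 2887 CPM in vehicle and 3849, 3173, 3695, 2729 and 2894 CPM in formoterol livers, so M49 alone lay below the highest vehicle library. Per length, in RPKM (CPM per kilobase of gene), the 7 mtDNA subunits exceeded the 38 nuclear ones by a ratio of 62.1 ± 17.8 (SD, n = 4) in vehicle and 41.4 ± 24.7 (SD, n = 5) in formoterol livers. The ranges, 37.6 to 79.5 and 20.6 to 81.8, overlapped widely, and M50 had the highest ratio of all 9 libraries. Formoterol library M49, at 46.1, also lay above vehicle library M60, at 37.6.

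**Figure D3:**
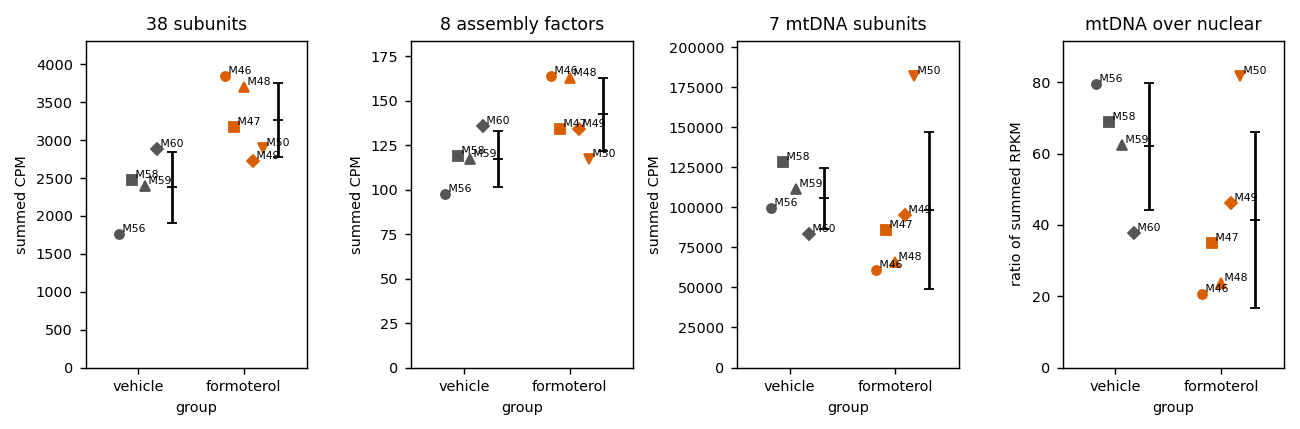
Each symbol is 1 library, and the bars beside each group give its mean and SD (4 vehicle, 5 formoterol), for the summed CPM of the 38 nuclear subunits, the 8 assembly factors and the 7 mtDNA subunits, and for the ratio of summed RPKM of mtDNA over nuclear subunits. Nuclear subunits sum to 1759 to 2887 in vehicle and 2729 to 3849 in formoterol libraries, while the mtDNA sum of formoterol library M50 reaches 182149.

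Levels differed far more among members than between groups. Per length, Ndufa8 was the most abundant, at 151 ± 34.5 RPKM (SD, n = 4) in vehicle and 224 ± 22.9 (SD, n = 5) in formoterol livers. By the mean over all 9 libraries, Ndufb10, Ndufa13, Ndufa4, Ndufc2, Ndufb6, Ndufb11 and Ndufb3 followed, from 102 down to 91.7 RPKM. Neighbours among these 7 differed in each group by less than the larger of their SDs. The lowest member was Ndufb2, at 1.22 ± 0.498 RPKM in vehicle and 1.68 ± 0.377 in formoterol livers. Its listed length of 5628 bp and that of Ndufs1 (8086 bp), Ndufab1 (6883 bp) and Ndufb5 (4995 bp) lower their values per length. Ndufaf1 was the most abundant assembly factor, at 22.4 ± 3.62 RPKM in vehicle livers, and Ndufaf5 the least, at 1.93 ± 0.290. Across the 38 subunits the log2 fold change had a Spearman correlation of 0.17 with mean RPKM and of −0.20 with mean CPM. Over the 11743 protein-coding genes tested, the correlation with mean RPKM was 0.39. These are descriptions over genes that share the same 9 libraries.

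Differences varied with gene length, for subunits and for genes at large. The Spearman correlation of log2 fold change with the listed gene length was −0.52 over the 38 subunits and −0.24 over the 11743 protein-coding genes tested, all from the same 9 libraries, and genes are not independent replicates. The 19 shortest subunits had a median of 0.61 with 16 at an unadjusted p under 0.05, and the 19 longest 0.40 with 9. Among protein-coding genes of up to 1814 bp, 22 subunits had a median of 0.58 with 18 at that p, while the other 1150 genes had 0.24 with 25.3%. With an offset for gene length in each library, those medians were 0.37 and 0.056. Over all 38 subunits the offset left 18 higher and 0 lower (9.06% and 5.14% of all genes), with a median of 0.37. Of the 25 subunits, 8 no longer had a p under 0.05 with it (Ndufa8, Ndufb11, Ndufs7, Ndufb6, Ndufa3, Ndufa1, Ndufc1 and Ndufb1), and 1 other did (Ndufb5). The log2 fold change of Ndufa8 was 0.30 with the offset (unadjusted p = 0.0577), and it moved by over 1.5 times in 12 of the 25, to 0.37 for Ndufs8 and for Ndufb9 and 0.44 for Ndufb3 and for Ndufa2.

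**Figure D4:**
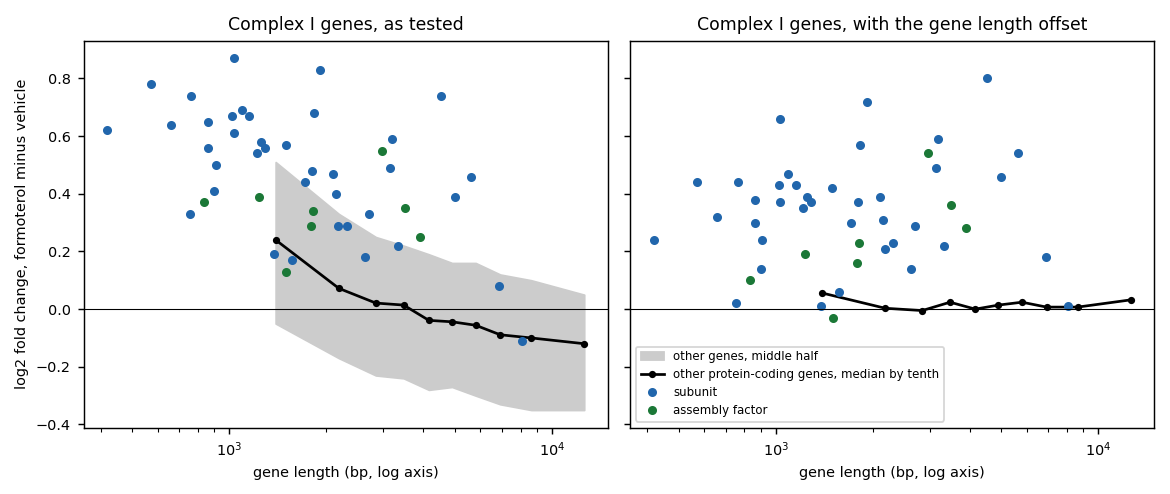
Log2 fold change of formoterol minus vehicle against gene length on a log axis, as tested (left) and with the length offset (right), for subunits, assembly factors and the median of the other protein-coding genes in 10 bins of equal size by length, with the range from their lower to their upper quartile shaded on the left. In the bin of the shortest genes the other genes lie at 0.24 and the subunits at a median of 0.58, and with the offset at 0.056 and 0.37.

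A single vehicle library held the lowest values. M56 was the lowest of the 9 for 35 of the 38 subunits (92.1%, against 13.7% of the genes tested) and for 6 of the 8 assembly factors. M46 was the highest for 21 subunits (55.3%, against 18.3%) and M48 for 14 (36.8%, against 13.4%). Deviations of protein-coding genes from their mean correlated with gene length in these libraries, with a Spearman correlation of 0.26 in M56, −0.22 in M46 and −0.26 in M48. In the other vehicle libraries it was 0.20 (M58), 0.16 (M59) and −0.05 (M60). In the other formoterol libraries it was −0.15 (M47), 0.07 (M49) and 0.15 (M50). Without M56, 15 subunits were higher before adjustment and 0 lower (5.77% and 3.29% of all genes at a p under 0.05), and the median was 0.37. Leaving out single libraries in turn gave 15 to 29 subunits (with 5.77% to 12.6% of all genes higher) and medians of 0.37 to 0.67. In 15 subunits p stayed under 0.05 in all 9 such fits, as it did for 4.26% of the genes tested in the direction of higher values, and 10 lost it in at least 1. Without formoterol library M49, edgeR called 702 genes (5.51%), 442 of them higher (3.47%), among them 8 subunits (Ndufb7, Ndufv3, Ndufb4, Ndufb3, Ndufb9, Ndufa11, Ndufa3 and Ndufb1).

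**Figure D5:**
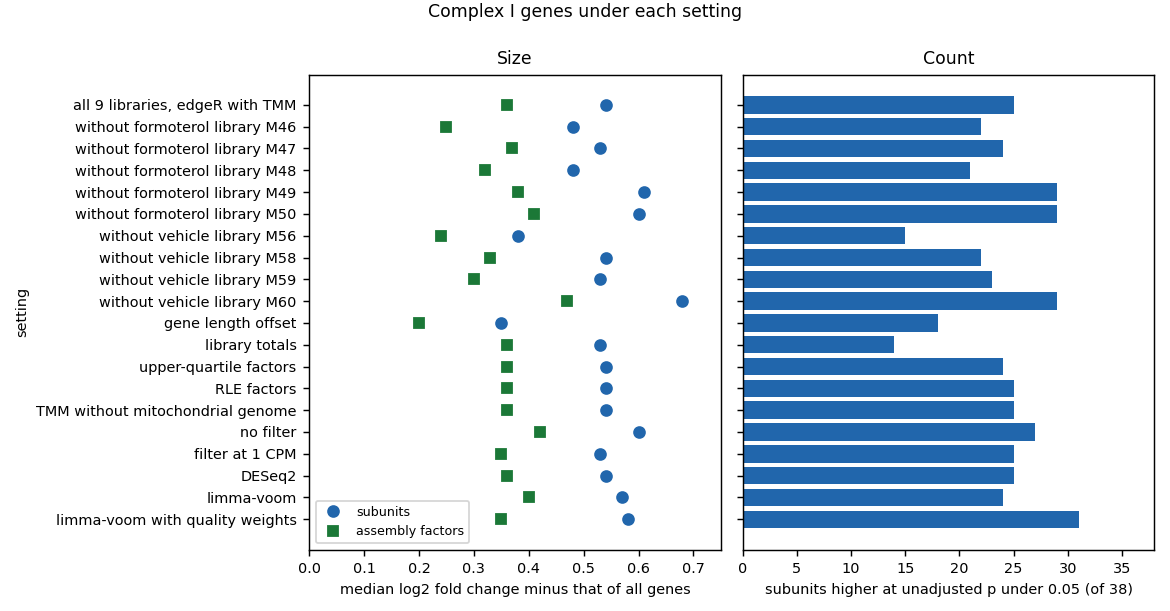
Median log2 fold change of the 38 subunits and the 8 assembly factors minus that of all genes tested (left) and the number of subunits higher at an unadjusted p under 0.05 (right), for each way of fitting. The subunit median stays between 0.35, with the gene length offset, and 0.68, without M60, and the number is lowest at 14, with library totals (3.58% of all genes).

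Other gene sets of the same libraries give the scale. Nuclear genes of complex III had a median of 0.57 (6 of 9 with a p under 0.05 before adjustment, all higher), those of complex IV 0.56 (8 of 12) and those of the ATP synthase 0.47 (13 of 18). Complex II, the entry point from succinate, had 0.075 (1 of 4). Mitochondrial ribosome genes had 0.34 (31 of 77) and cytosolic ribosome genes 0.57 (48 of 76), so values of this size were not limited to mitochondrial genes. The differences between complex I and these sets were not tested.

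Regulators of mitochondrial gene expression had a median of 0.036 over 16 genes. At an unadjusted p under 0.05, 1 was higher (Esrra) and 1 lower (Pprc1), near the background of 9.03% and 5.53% of all genes. Esrra, a nuclear receptor that binds many respiratory chain promoters, had 12.99, 19.67, 12.74 and 18.95 CPM in vehicle libraries and 22.21, 23.04, 23.28, 23.98 and 23.00 CPM in formoterol libraries. All 5 formoterol libraries lay above all 4 vehicle libraries and close to each other (0.52, SE 0.17, unadjusted p = 0.00678, edgeR adjusted p = 0.194). Pprc1, a coactivator of the PGC-1 family, had 4.601, 6.172, 4.150 and 5.966 CPM against 2.69, 2.41, 2.85, 3.95 and 3.47. Its groups did not overlap either, in the opposite direction (−0.75, SE 0.26, unadjusted p = 0.0101, edgeR adjusted p = 0.214). Groups without overlap were found in 2.45% of the genes tested in the higher direction, and in 311 of 13042 in the lower.

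Gabpb1, a subunit of the ETS-family factor GABP, had 7.338, 7.653, 6.201 and 6.230 CPM in vehicle libraries and 7.40, 8.86, 7.52, 9.80 and 9.06 in formoterol libraries (0.32, SE 0.19). Polrmt, the mitochondrial RNA polymerase, had 10.2, 12.8, 9.18 and 10.8 CPM against 6.67, 11.5, 8.50, 8.82 and 8.82 (−0.27, SE 0.19). Both pairs of groups overlapped. Ppargc1a (0.02, SE 0.23), Nrf1 (−0.07, SE 0.27), Gabpa (0.05, SE 0.21), Yy1 (0.18, SE 0.14) and Tfam, which maintains and transcribes mtDNA (−0.05, SE 0.14), differed by less than 2 SEs.

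Marker lists of liver cell types differed in how many of their genes had an unadjusted p under 0.05. The cholangiocyte (6 tested), erythroid (5 tested) and B and plasma cell (7 tested) lists had 0 in either direction, with medians of 0.025, −0.076 and 0.18. The 1 T and NK cell marker tested, Cd4, had 1.53 (unadjusted p = 0.0521). Of 18 hepatocyte markers tested, 13 had positive and 5 negative values (median 0.42), and 9 had an unadjusted p under 0.05, all of them higher. The summed level of the hepatocyte markers was 98577 to 117659 CPM in vehicle and 116433 to 162837 in formoterol libraries. Stellate and fibroblast markers had a median of −0.33 (0 higher and 1 lower of 15), with sums of 411 to 587 CPM in vehicle and 135 to 600 in formoterol libraries. Endothelial markers had −0.33 (0 higher and 1 lower of 14), with sums of 142 to 172 and 60.05 to 181.5 CPM. The 1 lower gene of the stellate and of the endothelial list is near the 5.53% of all genes lower. Macrophage markers had −0.34 (0 higher and 3 lower of 14), with sums of 212 to 355 and 123 to 377 CPM. The lowest of these stellate, endothelial and macrophage sums were those of M46, the library with the highest values for 21 subunits, and the other 4 formoterol libraries had 326 to 600, 119 to 181.5 and 184 to 377 CPM. Of the adipocyte markers, Plin1 was at 0 in all 9 libraries, and of the 4 tested 1 had a positive and 3 a negative value (median −0.16). Their sums were 83.7 to 150 CPM in vehicle and 122 to 164 in formoterol libraries. At p under 0.05 before adjustment, 0 of the 4 were lower and 1 was higher. That 1 was Cfd, with 11.7 CPM on average in vehicle and 75.4 in formoterol livers (2.68, unadjusted p = 3.78e-04), while the lipid droplet gene Cidec had 50.1 and 20.0 CPM (−1.32, unadjusted p = 0.0537). Of the neutrophil markers, Ly6g and Mpo were at 0 in all 9 libraries, and 2 were tested. Csf3r was lower (1.96 CPM in vehicle and 0.792 in formoterol livers, −1.29, unadjusted p = 0.0147), and S100a9 had a positive value (0.64, unadjusted p = 0.428). The groups of Csf3r did not overlap, as in 311 of the 13042 genes tested in that direction. The part of these marker differences in the complex I result was not tested.

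Some values may share reads with neighbours or copies. A gene on the opposite strand with over 10% of the member's counts overlaps 9 subunits (Ndufb11, Ndufb5, Ndufs1, Ndufa2, Ndufa11, Ndufa3, Ndufs6, Ndufb1 and Ndufb2) and 2 assembly factors (Ndufaf2 and Ndufaf3). The share is 14.0% for Ndufa11, whose partner is Vmac, and 156% for Ndufs1, whose partner is Eef1b2. The 29 subunits outside such overlaps had a median of 0.54, with 20 higher at an unadjusted p under 0.05. Processed pseudogenes with counts also exist for Ndufab1, Ndufb4, Ndufs5 and Ndufs6. Of the mtDNA subunits, mt-Nd4l overlaps mt-Nd4 at its end on the same strand, and mt-Nd6 overlaps mt-Nd5 on the opposite strand.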

How the data were processed

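Poly(A) RNA from 9 mouse livers was sequenced, and the authors deposited 1 table of raw counts per gene, whole numbers with no normalization, with symbols, biotypes, gene lengths in bp and coordinates per the file headers. HISAT2 2.0.5 was the aligner and mm39 the build, per the submitters' processing notes, which also name DESeq2. How reads were counted, with which strand setting and annotation, was not given in the sources used here, so reads of overlapping genes on opposite strands cannot be told apart. Columns carry animal codes and a suffix, and no replicate number. The last letter of the suffix and the group sizes of 5 and 4 gave the groups. No column of sample values was left unused. Each library was taken as 1 mouse. Were any to share a mouse, p-values would speak of the spread among libraries alone, possibly technical.

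Counts were tested in R 4.3.3 with edgeR 4.0.16 (TMM factors, robust quasi-likelihood test, Benjamini-Hochberg adjustment over all genes tested, threshold 0.05). The filter filterByExpr (count 10, total 15) kept 13042 of the 24041 genes with a count, which held at least 99.84% of the counts of each library. The SE is the size of the log2 fold change divided by the square root of the F statistic. On simulated counts for this comparison over 12734 genes, edgeR recovered 55.2% of genes changed by 1 on the log2 scale and 89.9% of those changed by 2, with 5 false calls among 147. Complex I genes differed by at most 0.87, so these shares do not apply to them. The simulated counts also held no trend with gene length. RPKM is TMM-scaled CPM per kilobase of the deposited gene length. DESeq2 1.42.0 and limma 3.58.1, other scalings and filters, a gene length offset (loess on log length, span 0.5) and leaving out each library were alternatives. Single values per library were compared by two-sided exact permutation over 126 splits.

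The members, lists and tests were chosen with earlier results of these data known. Values of every library are given for the subunit with the smallest p in each module, the 7 nuclear core subunits, the 2 subunits with the lowest log2 fold change, any assembly factor at an unadjusted p under 0.05, the 2 smallest p among mtDNA subunits and among other assembly factors, and the 2 smallest p in each direction among regulators. Ndufa12 and single genes of the module paragraphs were added for their values. For 1 member the single values are not reported here, and it stays in the counts and medians.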

Additional observations from a re-analysis of the deposited data

Results flagged for a closer look

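Single-library values were picked out because the highest or lowest library of a group lay far from the others for the size of the group's range. Of 98 groups of libraries examined (the 46 members and 3 summary levels, in each treatment group), 3 met that mark, where chance gives about 1 in 20. Ndufa11 had 18.93 CPM in vehicle library M56, against 32.2 to 33.2 CPM in the other 3 vehicle libraries. Ndufaf3, an assembly factor of the Q module, had 12.04 CPM in formoterol library M46, against 7.59 to 8.29 CPM in the other 4. Ndufaf5, which hydroxylates a core subunit, had 2.685 CPM in vehicle library M59, against 3.67 to 3.79 CPM in the other 3.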

How the results depend on the processing

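The number of genes called was 306 with DESeq2, 1374 with limma-voom and quality weights (weights of 3.51 for M47 and 0.369 for M49) and 263 without a filter, and 0 to 702 when single libraries were left out (702 without M49, 4 without M60). The number of subunits higher at an unadjusted p under 0.05 was 14 with library totals, which shift the median of all genes to −0.163, and 15 to 29 without single libraries, 15 of them without M56. For assembly factors it was 0 with library totals, 2 with quality weights and 0 to 2 without single libraries. It was 0 without any 1 of M46, M47, M48 or M56, and 2 without M50 or M60. No subunit was lower at that p in any of the 19 alternatives. Subunit medians ran from 0.37 to 0.67 and assembly factor medians from 0.20 to 0.45. Signs turned for Ndufs1 (0.01) and Ndufaf1 (−0.03) with the length offset, for Ndufab1 (−0.08) and Ndufaf1 (−0.03) with library totals, for Ndufab1 (−0.01) with quality weights, and for Ndufa12 without M49 (−0.06) or M56 (−0.09), whose values without single libraries ran from −0.09 to 0.51. The causes were not tested. For the share of counts from the mitochondrial genome, the difference of formoterol minus vehicle was −8.41 to −2.86 percentage points without single libraries. In promoter windows cut to 100 bases before the start, subunit windows with SP motifs went from 5 to 3, with CCAAT boxes from 10 to 6, with ETS motifs from 4 to 3 and with the CRE from 3 to 2, while the shares of promoters of genes tested were 15.2%, 25.1%, 13.2% and 2.27%. No paired analysis was possible because the columns carry no replicate number of the labels. Depth limits the low members, such as Ndufaf5 with 2.69 to 5.13 CPM.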
